A study of Mus musculus with 12 samples.

Results

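The granzymes, perforin, cystatin F and 3 serine protease inhibitors of the serpin family were followed in regulatory T (Treg) cells, the Foxp3-expressing CD4 lymphocytes that hold immune responses in check, with Batf intact or deleted. Batf is a transcription factor of the AP-1 family. The 10 genes were taken from the 24421 entries of the deposited table by symbol: Gzma, Gzmb, Gzmc, Gzmk, Gzmm, Prf1, Cst7, Serpinb9, Serpina3f and Serpina3g. All 10 were present once. Of these, 8 reached 1 RPKM (reads scaled to exon length and to the assigned reads of the library) in at least 3 libraries and were tested, and Gzmk and Gzmm did not.

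RNA was sequenced from sorted Treg cells of C57BL/6 mice aged 7 weeks in 12 libraries, 3 for each of 4 groups. KO cells came from Foxp3CreBatffl/fl mice, in which Cre recombinase made under the control of Foxp3, the lineage factor of Treg cells, deletes the floxed Batf alleles, and WT is the only genotype given for the other cells. Cells were used unstimulated or were cultured for 48 h with IL-2 (200 U/ml) on plates coated with anti-CD3 and anti-CD28 (5 µg/ml), which stand in for growth factor, antigen receptor and costimulatory signals. The sources used here do not give whether the WT mice carried Cre or whether animals were pooled.

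Cytotoxic lymphocytes kill by releasing granules in which perforin opens a way through the target membrane and granzymes, a family of serine proteases, cut proteins inside the target. Granzymes are stored on the proteoglycan serglycin and are activated by cathepsin C, which cystatin F holds in check. Serpins trap proteases by a suicide mechanism, and Serpinb9 protects the killer cell from granzyme B that leaks into its own cytosol. Treg cells of the mouse can make granzyme B and perforin and have been described to use them against effector cells.

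Unstimulated KO cells held less RNA for Gzmb, Gzmc and Cst7 than unstimulated WT cells, and none of the 5 other genes tested passed the threshold. After 48 h the pattern differed: Gzmb and Prf1 were lower in KO cells, while Serpinb9, Serpina3f, Serpina3g and Gzmc were higher. In bulk libraries, fewer cells that make a transcript and less of it per cell cannot be told apart. Assigned reads ranged from 22731823 to 32055383 over the libraries. Fold changes were fitted with limma on log2(RPKM + 1), a scale that shrinks the change of genes near 0, and the threshold was an adjusted p under 0.05 over the 10406 genes tested. The labels do not tie libraries to animals, so each p-value reflects only how far these libraries spread, which may be technical.

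The labels held up against the genes that define them, with limits. Batf was at 46.9, 33.0 and 25.9 RPKM in unstimulated KO libraries, against 103, 93.3 and 90.03 in unstimulated WT libraries. At 48 h it was at 26.5, 21.2 and 17.98 RPKM in KO, against 134, 125 and 128 in WT. Which exons were deleted was not known here. Reads from remaining exons may count toward the KO values, but the source of the Batf reads in KO libraries was not tested. All 7 Treg markers checked, Foxp3 and Il2ra among them, were at 8.06 RPKM or more in every library. Of the 7, 1 was lower in unstimulated KO and 4 in KO at 48 h, beside 5.83% and 9.81% of all tested genes, and 0 were higher. They summed to 1120 to 1190 RPKM in KO and 1190 to 1270 RPKM in WT unstimulated. At 48 h they summed to 896 to 995 RPKM in KO and 1220 to 1260 RPKM in WT. The Y-linked Eif2s3y was at 38.6 to 57.7 RPKM in 4 libraries, WT libraries 1 and 2 of both states, and at most 0.0718 RPKM in the other 8, so sex is partly confounded with genotype (these 4 are called Y-positive). Leaving these 4 out keeps 1 WT library per state, so an effect of sex and an effect of fewer libraries cannot be told apart in that fit. Cd8a was at most 0.642 RPKM in any library, although Cd8b1 reached 15.2 to 17.7 RPKM in unstimulated KO and 15.1 to 16.5 RPKM in unstimulated WT libraries. Of 12 NK cell markers, 8 passed the filter, and the list summed to 19.9 to 31.8 RPKM in unstimulated KO and 26.5 to 33.5 RPKM in unstimulated WT, with Klra4 and Klra8 at 0 in all libraries. B cell markers summed to 42.3 to 85.8 RPKM in KO and 37.4 to 43.3 RPKM in WT libraries before stimulation, and mast cell and basophil markers to 0.692 to 8.32 RPKM in KO and 0.313 to 3.13 RPKM in WT.

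Promoter windows from RefSeq (build GRCm38.p6), 250 bases before to 50 bases after the annotated gene start, were available for all 10 genes. The windows of 6 genes are shown, those with a called genotype difference other than Gzmc. They are Gzmb (chr14:56262285-56262584, minus strand), Prf1 (chr10:61297586-61297885, plus strand), Cst7 (chr2:150570165-150570464, plus strand), Serpinb9 (chr13:33004291-33004590, plus strand), Serpina3f (chr12:104214294-104214593, plus strand) and Serpina3g (chr12:104235897-104236196, plus strand). Capitals mark matches, on either strand, to 7 short motifs: AP-1 (TGANTCA), CRE (TGACGTCA), a BATF-IRF composite (TTTC, any 4 bases, then the AP-1 letters), an interferon response motif (GAAA, any 2 bases, then GAAA), STAT (TTCNNNGAA), RUNX (TGTGGT) and NFAT (TGGAAA).
Gzmb: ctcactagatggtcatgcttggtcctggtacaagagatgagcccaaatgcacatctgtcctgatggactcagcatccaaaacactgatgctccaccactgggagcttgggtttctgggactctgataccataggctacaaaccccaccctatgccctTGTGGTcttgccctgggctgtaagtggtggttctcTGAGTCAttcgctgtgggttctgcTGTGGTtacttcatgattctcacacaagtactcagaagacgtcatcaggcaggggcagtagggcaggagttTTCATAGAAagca
Prf1: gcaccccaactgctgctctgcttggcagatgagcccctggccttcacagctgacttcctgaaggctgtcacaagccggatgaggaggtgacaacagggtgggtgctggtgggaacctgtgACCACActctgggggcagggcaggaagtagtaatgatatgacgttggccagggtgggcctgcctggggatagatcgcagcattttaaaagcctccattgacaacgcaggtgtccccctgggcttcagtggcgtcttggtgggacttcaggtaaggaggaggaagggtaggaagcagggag
Cst7: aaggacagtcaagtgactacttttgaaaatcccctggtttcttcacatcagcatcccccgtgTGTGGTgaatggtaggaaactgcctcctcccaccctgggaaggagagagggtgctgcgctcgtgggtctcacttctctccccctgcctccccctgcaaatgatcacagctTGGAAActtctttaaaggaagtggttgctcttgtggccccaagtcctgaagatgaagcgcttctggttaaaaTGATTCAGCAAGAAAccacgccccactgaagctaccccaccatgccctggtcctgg
Serpinb9: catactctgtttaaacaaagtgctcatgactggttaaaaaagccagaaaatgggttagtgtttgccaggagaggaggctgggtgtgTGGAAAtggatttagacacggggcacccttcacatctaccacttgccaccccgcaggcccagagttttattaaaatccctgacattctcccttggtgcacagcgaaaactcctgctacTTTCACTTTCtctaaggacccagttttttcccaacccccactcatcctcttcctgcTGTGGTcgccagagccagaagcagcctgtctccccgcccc
Serpina3f: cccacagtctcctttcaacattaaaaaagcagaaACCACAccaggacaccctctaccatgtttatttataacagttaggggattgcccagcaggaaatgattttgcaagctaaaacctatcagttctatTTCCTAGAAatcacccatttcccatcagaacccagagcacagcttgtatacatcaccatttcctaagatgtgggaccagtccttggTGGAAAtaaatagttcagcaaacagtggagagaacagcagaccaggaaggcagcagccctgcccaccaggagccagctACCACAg
Serpina3g: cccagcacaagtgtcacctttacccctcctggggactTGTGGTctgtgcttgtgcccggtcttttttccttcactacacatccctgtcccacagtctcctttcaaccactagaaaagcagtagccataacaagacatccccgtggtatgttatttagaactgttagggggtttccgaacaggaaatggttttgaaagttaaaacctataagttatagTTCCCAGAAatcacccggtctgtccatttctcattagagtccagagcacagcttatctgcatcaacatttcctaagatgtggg

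The windows of Gzmb and Cst7 each held 1 AP-1 match, TGAGTCA starting 58 bases before the RefSeq start of Gzmb and TGATTCA starting 6 bases before that of Cst7. In Cst7 the AP-1 match lies inside the composite match TGATTCAGCAAGAAA. AP-1 letters occur in 7.81% and composite letters in 0.12% of 32851 windows of this length. Serpina3f and Serpina3g each held 1 STAT match, TTCCTAGAA and TTCCCAGAA, a motif found in 8.3% of windows. Gzmb held 1 as well, TTCATAGAA, and so did a window of Gzmm, TTCATGGAA. The windows of Serpina3f and Serpina3g resemble each other over 202 aligned bases, of which 83.7% are identical. Interferon response letters, found in 3.44% of windows, occurred in Serpinb9 (TTTCACTTTC) and in Gzma (TTTCATTTTC). The Prf1 window held 1 RUNX match, found in 16.76%, and no match to the other 6 motifs. The Gzmc window, not shown, held 1 CRE match, TGACGTCA, found in 1.79% of windows, and no window of the other genes held one. RUNX matches occurred in the windows of all the genes except Gzmk, and NFAT letters occur in 21.43% of all windows. The RefSeq starts of some genes, Gzmb, Gzmk and Serpina3g among them, differ from the starts of the counted gene models. That of Serpina3g is far away, with a window from 104235897 on chromosome 12 and a counted model from 104214544. A match is a description of letters, not a binding site.

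**Figure D1:**
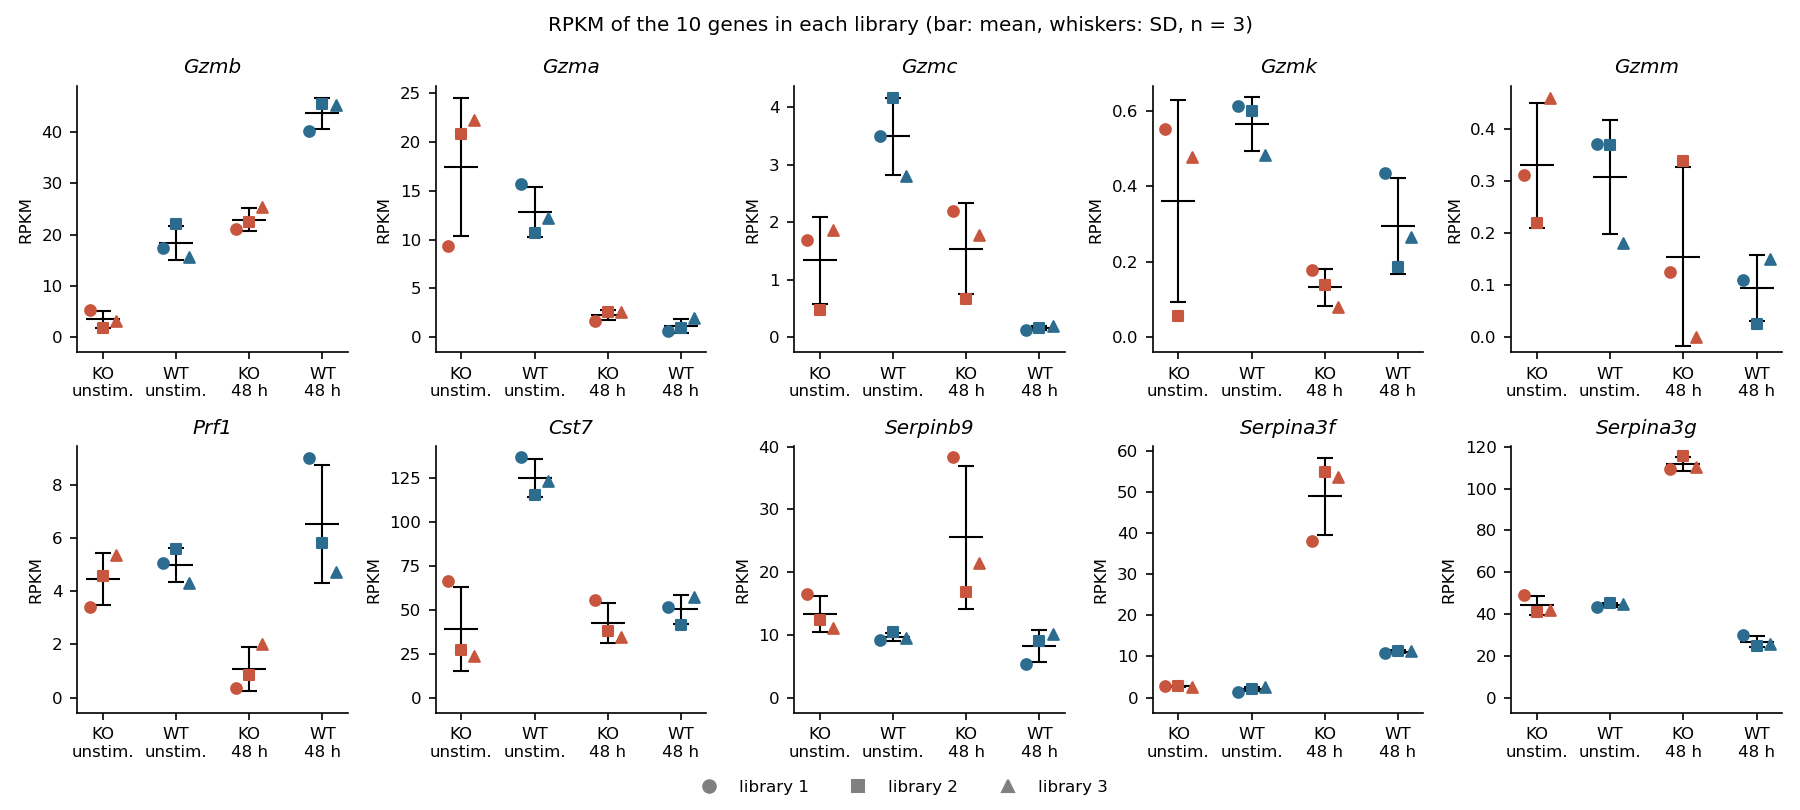
RPKM of each of the 10 genes in each library, with KO left of WT in each state. Points are libraries 1 to 3, bars are means and whiskers are SD (n = 3). Gzmb is lower in KO in both states, while Serpina3f and Serpina3g stand apart in the 3 KO libraries at 48 h, Serpina3g at 109 to 116 RPKM against 24.9 to 29.9 RPKM in WT.

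Gzmb encodes granzyme B, the protease that triggers apoptosis by cutting after aspartate (chromosome 14, 56258858 to 56262260, minus strand, mm10, 5 exons). Unstimulated, it was at 5.31, 1.86 and 3.23 RPKM in KO libraries 1 to 3, against 17.5, 22.1 and 15.6 RPKM in WT libraries 1 to 3. The groups did not overlap, and mean RPKM was 5.3-fold lower in KO. KO over WT gave a log2 value of -2.18 (SE 0.21, limma adjusted p = 3.51e-05). At 48 h Gzmb was at 21.0, 22.4 and 25.4 RPKM in KO, against 40.2, 45.5 and 45.4 RPKM in WT, again without overlap. KO over WT gave a log2 value of -0.90 (SE 0.21, limma adjusted p = 0.0112), and the call was lost with a covariate for Y-linked expression (-0.83, adjusted p = 0.0538) and without the 4 Y-positive libraries (-0.96, adjusted p = 0.0967). Stimulation raised Gzmb in both genotypes, by 2.49 in KO (adjusted p = 1.19e-07) and by 1.22 in WT (adjusted p = 0.000128) on the log2 scale.

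Gzma encodes granzyme A, a trypsin-like granzyme (chromosome 13, 113093827 to 113100981, minus strand, 5 exons). It was at 9.35, 20.8 and 22.2 RPKM in unstimulated KO, against 15.7, 10.6 and 12.2 RPKM in unstimulated WT. After stimulation it was at 1.69, 2.54 and 2.63 RPKM in KO, against 0.653, 0.918 and 1.99 RPKM in WT. The genotypes overlapped in both states, and the 48 h log2 fold change of 0.62 did not pass (limma adjusted p = 0.146). It passed only when KO libraries numbered 1 were left out, both of them (0.76, adjusted p = 0.0365) or the unstimulated one (0.62, adjusted p = 0.0489). Gzma fell at 48 h by 2.42 on the log2 scale in KO (adjusted p = 3.19e-06) and by 2.69 in WT (adjusted p = 1.02e-06), without overlap between states in either genotype.

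NK cells are a major source of Gzma, and markers of these cells moved the same way with stimulation. The 12 NK cell markers summed to 2.6 to 3.17 RPKM at 48 h, against 19.9 to 31.8 RPKM unstimulated, in KO libraries. In WT libraries they summed to 1.35 to 1.9 RPKM at 48 h, against 26.5 to 33.5 RPKM unstimulated. Of the 8 tested, 7 fell in KO and 8 in WT, beside 34.6% and 35.4% of all tested genes. Klrb1c, a defining NK receptor, was at 0 to 0.0268 RPKM in KO and 0 to 0.0581 RPKM in WT libraries at 48 h. Their part in the fall of Gzma was not tested. Between genotypes 1 of the 8, Eomes, was higher in KO in each state, beside 4.35% of all tested genes unstimulated and 7.76% at 48 h, and 0 were lower.

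Gzmc encodes granzyme C, a rodent granzyme gene in the same cluster as Gzmb (chromosome 14, 56231401 to 56234656, minus strand, 5 exons), and its genotype difference changed direction with stimulation. Unstimulated, it was at 1.68, 0.471 and 1.86 RPKM in KO, against 3.51, 4.16 and 2.81 RPKM in WT. At 48 h it was at 2.19, 0.666 and 1.77 RPKM in KO, against 0.123, 0.157 and 0.187 RPKM in WT, which stand for 3, 4 and 5 reads. KO libraries were thus below every WT library unstimulated and above every WT library at 48 h. KO over WT gave a log2 value of -0.99 (SE 0.26, limma adjusted p = 0.0271) unstimulated and 1.08 (SE 0.26, limma adjusted p = 0.0115) at 48 h, where mean RPKM was 9.9-fold higher in KO.

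The unstimulated call of Gzmc was lost without WT library 1 (adjusted p = 0.0798), WT library 2 (0.093) or KO library 2 (0.0613), and also with a pseudocount of 0.1 (0.0586), without the filter (0.0672), with a Y-linked term (0.113) and without the 4 Y-positive libraries (0.436). The 48 h call was lost without 48 h KO library 3 (adjusted p = 0.0528) or without the 4 Y-positive libraries (0.136), and the 48 h log2 fold change was 2.55 with a pseudocount of 0.1 and 3.02 by limma-voom on reads. Windows of 50 bases shared with other genes made up 4.1% of those in Gzmc transcripts, mostly with Gzme. Gzmd, Gzme, Gzmg and Gzmn were listed at 0 in all libraries. The rule for reads that match several genes was not known here.

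Gzmk and Gzmm, for a further trypsin-like granzyme and for one that cuts after methionine or leucine, were close to the detection limit. Gzmk (chromosome 13, 113171874 to 113180897, minus strand) had 1 to 10 reads per library in unstimulated KO and 9 to 13 in unstimulated WT, and 2 to 4 in KO and 4 to 9 in WT at 48 h. Gzmm (chromosome 10, 79689020 to 79695261, plus strand) had 7 to 17 reads in unstimulated KO and 6 to 14 in unstimulated WT, and 0 to 13 in KO and 1 to 6 in WT at 48 h. Fitted without the filter, the genotype log2 fold changes of Gzmk were -0.22 (95% interval -0.5 to 0.07) unstimulated and -0.19 (-0.48 to 0.09) at 48 h. Those of Gzmm were 0.02 (-0.21 to 0.26) and 0.07 (-0.17 to 0.31). None of these passed the threshold at this depth.

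The makeup of the granzyme pool is a comparison chosen after the values were seen and given without a test. Over the 5 granzymes, summed RPKM was 23 ± 5.54 in unstimulated KO and 35.6 ± 3.74 in unstimulated WT (SD, n = 3 each). Gzmb made up 30.8%, 7.96% and 11.4% of the sum in KO libraries, against 46.4%, 58.4% and 50% in WT libraries. In KO cells Gzma exceeded Gzmb in all 3 unstimulated libraries, and in WT cells Gzmb exceeded Gzma in all 3. At 48 h the sum was 27 ± 2.46 RPKM in KO and 45.4 ± 3.46 RPKM in WT, and Gzmb made up 83.4%, 85.9% and 85% of it in KO libraries, against 96.8%, 97.3% and 94.6% in WT libraries.

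**Figure D2:**
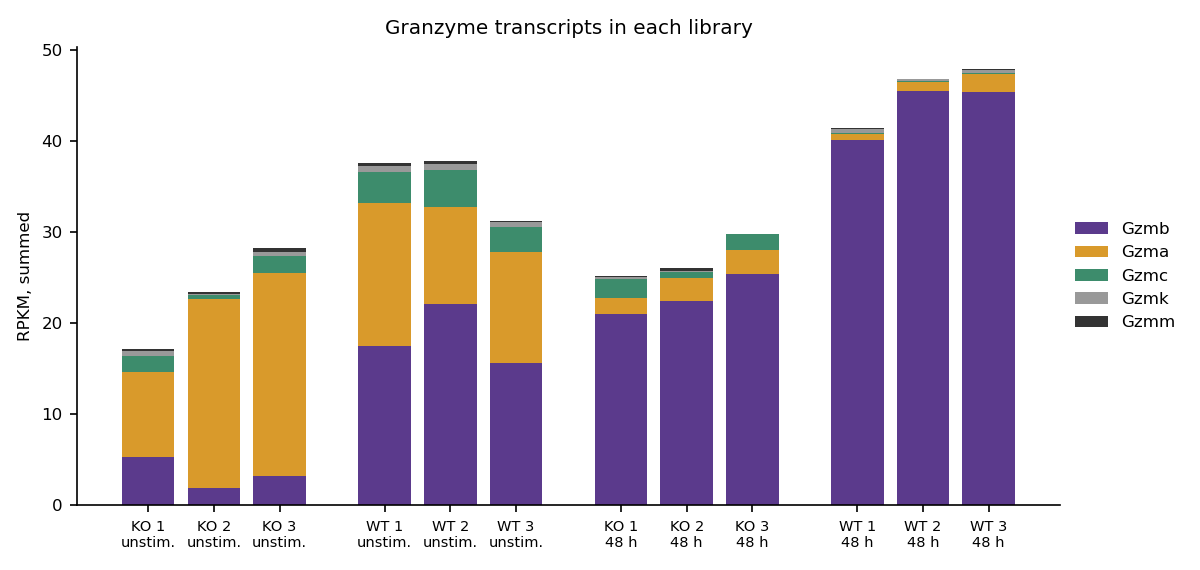
Stacked RPKM of the 5 granzyme genes in each library, KO left of WT in each state. Gzma is the tallest part of the 3 unstimulated KO bars, and Gzmb is the tallest part of every other bar.

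Prf1, the gene of perforin (chromosome 10, 61297836 to 61304263, plus strand, 3 exons), did not differ detectably between genotypes without stimulation. It was at 3.42, 4.58 and 5.38 RPKM in unstimulated KO, against 5.06, 5.59 and 4.33 RPKM in unstimulated WT (log2 fold change -0.14, 95% interval -0.70 to 0.41). At 48 h it was at 0.378, 0.855 and 2.005 RPKM in KO, against 9.03, 5.84 and 4.73 RPKM in WT. All KO libraries lay below all WT libraries at 48 h, and mean RPKM was 6.05-fold lower in KO. On the log2 scale KO was at -1.89 relative to WT (SE 0.26, limma adjusted p = 0.000271), and it stayed past the threshold in every alternative fit, with adjusted p from 8.35e-05 to 0.0332. From unstimulated cells Prf1 fell by 1.45 on the log2 scale in KO (adjusted p = 0.00014) and had a log2 fold change of 0.29 in WT that did not pass (adjusted p = 0.301).

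Cst7 encodes cystatin F, an inhibitor of cathepsins in granules and lysosomes (chromosome 2, 150570415 to 150578944, plus strand, 4 exons). Unstimulated, it was at 66.6, 27.0 and 23.7 RPKM in KO, against 137, 116 and 123 RPKM in WT. Relative to WT the log2 change was -1.80 (SE 0.29, limma adjusted p = 0.00204), with every KO library below every WT library and KO library 1 above the other KO libraries. After stimulation it was at 55.4, 37.9 and 34.3 RPKM in KO, against 51.8, 41.5 and 57.4 RPKM in WT, and the groups overlapped (log2 fold change -0.25, 95% interval -0.89 to 0.38). The unstimulated value was -2.26 without KO library 1 and -1.78 without the 4 Y-positive libraries, where it was no longer called (adjusted p = 0.145). Without both KO libraries numbered 1 the 48 h difference passed at -0.45 (adjusted p = 0.0321).

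Cst7 thus fell with stimulation in WT, by a log2 change of -1.31 (SE 0.29, limma adjusted p = 0.00102), while the KO value of 0.24 did not pass (adjusted p = 0.461). Without the 4 Y-positive libraries, with 1 WT library left per state, the WT value was -1.09 and was no longer called. The difference between these responses was 1.55 (SE 0.42) and lay at the threshold (limma adjusted p = 0.0521). It passed without unstimulated KO library 1 (2.01, adjusted p = 0.000646), by limma-voom (1.59, adjusted p = 0.0264) and with a block by library number (1.55, adjusted p = 0.0231). Without that library the KO response was 0.69 and passed as well (adjusted p = 0.00298). Cells of the myeloid lineage also express Cst7, and 5 of 6 tested myeloid markers were lower in unstimulated KO, beside 5.83% of all tested genes. The 10 myeloid markers summed to 20.6 to 22.7 RPKM in unstimulated KO and 30.5 to 37.9 RPKM in unstimulated WT, and at 48 h to 0.678 to 1.62 RPKM in KO and 2.9 to 3.49 RPKM in WT, with C1qa and C1qb at 0 in all 48 h libraries. Their part in the Cst7 difference was not tested.

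Serpinb9 encodes the cytosolic inhibitor of granzyme B (chromosome 13, 33004541 to 33017955, plus strand, 7 exons). Unstimulated, it was at 16.5, 12.3 and 11.1 RPKM in KO, against 9.17, 10.4 and 9.52 RPKM in WT. The groups did not overlap, but the log2 fold change of 0.40 did not pass (SE 0.26, limma adjusted p = 0.345). In stimulated cells it was at 38.4, 16.8 and 21.4 RPKM in KO, against 5.37, 9.05 and 10.2 RPKM in WT, also without overlap. At 48 h the change was 1.49 on the log2 scale (SE 0.26, limma adjusted p = 0.00169). Leaving out KO library 1, the highest, gave 1.16 (adjusted p = 0.00382), and leaving out the 4 Y-positive libraries gave 1.17 and ended the call (adjusted p = 0.0745).

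Serpinb9 and Gzmb, the inhibitor and its target, differed in opposite directions at 48 h, Serpinb9 higher and Gzmb lower in KO. Within libraries, the ratio of Serpinb9 to Gzmb RPKM was 3.11, 6.62 and 3.43 in unstimulated KO, against 0.525, 0.472 and 0.609 in unstimulated WT. At 48 h it was 1.83, 0.75 and 0.844 in KO, against 0.134, 0.199 and 0.224 in WT. The ratio was higher in each KO library than in any WT library of its state. It was chosen after the values were seen and was not tested, and it compares transcripts, not proteins.

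Serpina3g, known as Spi2A, encodes a serpin that can inhibit lysosomal cysteine cathepsins in the cytosol, and Serpina3f is a close relative in the same cluster. Serpina3g (chromosome 12, 104214544 to 104241934, plus strand, 6 exons) was at 49.3, 41.0 and 41.9 RPKM in unstimulated KO, against 43.1, 45.2 and 44.7 RPKM in unstimulated WT. The log2 fold change was -0.01 (95% interval -0.19 to 0.16). In stimulated cells it was at 109, 116 and 110 RPKM in KO, against 29.9, 24.9 and 25.5 RPKM in WT. All KO libraries stood far above all WT libraries, with a log2 fold change of 2.03 (SE 0.08, limma adjusted p = 2.39e-08). From unstimulated cells Serpina3g rose by 1.33 on the log2 scale in KO (adjusted p = 4.63e-09) and fell by 0.71 in WT (adjusted p = 2.33e-06).

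Serpina3f (chromosome 12, 104214544 to 104221129, plus strand, 7 exons) started from a lower level. It was at 2.78, 2.84 and 2.56 RPKM in unstimulated KO, against 1.45, 2.07 and 2.46 RPKM in unstimulated WT, a log2 fold change of 0.33 that did not pass (limma adjusted p = 0.151). At 48 h it was at 38.1, 54.9 and 53.6 RPKM in KO, against 10.9, 11.3 and 11.3 RPKM in WT. The log2 fold change at 48 h was 2.02 (SE 0.14, limma adjusted p = 1.33e-06), without overlap between the groups. Unlike Serpina3g, it rose in both genotypes, by 3.72 in KO (adjusted p = 5.39e-11) and by 2.04 in WT (adjusted p = 1.21e-08).

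The counted models of Serpina3f and Serpina3g share their start and 147 exon bases, which are 6.4% of Serpina3f and 7.3% of Serpina3g. Of 50-base windows in their transcripts, 10.6% of Serpina3f and 15.5% of Serpina3g also occur in other genes, such as each other and Serpina3h. Because Serpina3g was many-fold higher in unstimulated cells, reads from shared bases could make up a larger share of the low Serpina3f value than of its length, so that value and its change with stimulation are uncertain, and the size of this effect was not tested. Of the 9 other Serpina3 symbols in the table, 5 were listed at 0 throughout and none exceeded 0.175 RPKM. The ratio of Serpina3g to Serpina3f RPKM was 16.2 ± 1.65 in unstimulated KO and 23.3 ± 5.96 in unstimulated WT, and 2.35 ± 0.458 in KO and 2.4 ± 0.305 in WT at 48 h (SD, n = 3 each). The ratio was lower in every 48 h library than in any unstimulated library, and at 48 h the genotypes overlapped in it. With the reads of both genes summed, the log2 fold change of KO over WT at 48 h was 2.03 (limma adjusted p = 1.17e-08), and stimulation gave 1.78 in KO and -0.23 in WT.

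Of the 8 tested genes, unstimulated KO had 0 higher and 3 lower, beside 4.35% and 5.83% (10.2% in either direction) of the 10406 genes tested. The KO and WT libraries did not overlap for 2 higher and 3 lower genes, beside 12.4% and 15.5% (27.9% together) of all genes. At 48 h, KO had 4 higher and 2 lower, beside 7.76% and 9.81% (17.6% in either direction) of all genes. The same numbers, 4 and 2, did not overlap, beside 19.7% and 22.1% (41.8% together). The median log2 fold change over all tested genes was -0.02 unstimulated and 0.00 at 48 h. The genes were chosen with earlier results of these data in view, so these counts describe them and are not evidence about the family.

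**Figure D3:**
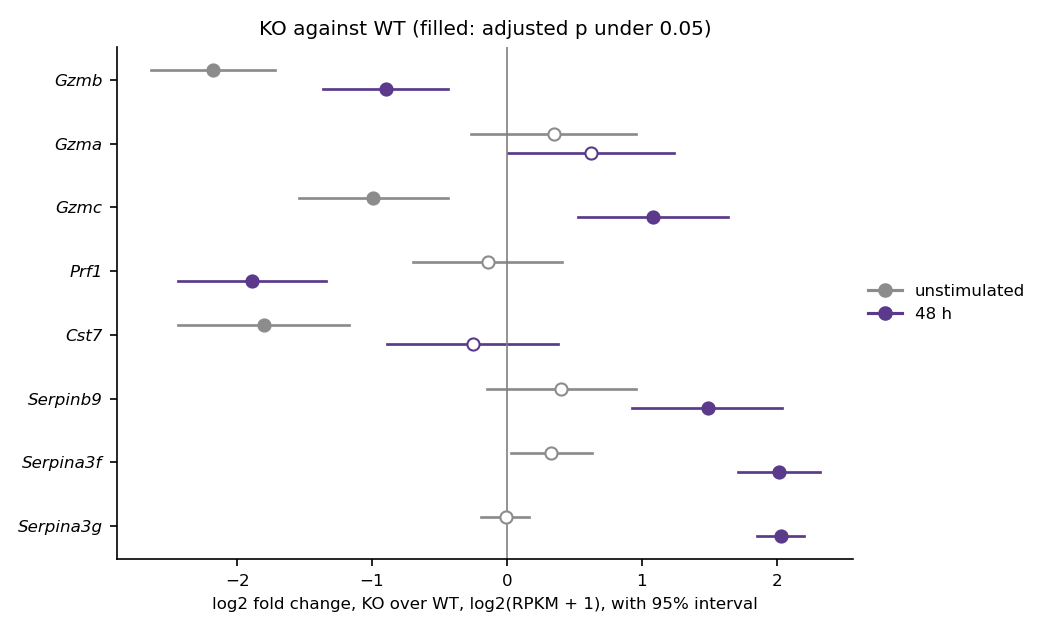
Log2 fold change of KO over WT for the 8 tested genes, unstimulated and at 48 h, with 95% intervals from limma. Filled points passed the threshold. Gzmc lies on opposite sides of 0 in the 2 states, at -0.99 and 1.08, and the 3 serpins lie right of 0 at 48 h.

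With stimulation, members were called in both genotypes about as often as all tested genes were. In KO, 4 of 8 were higher at 48 h (Gzmb, Serpinb9, Serpina3f and Serpina3g) and 2 lower (Gzma and Prf1), beside 44.3% and 34.6% (78.8% in either direction) of all tested genes. These 6 genes did not overlap between states, beside 45.3% and 35.1% (80.4% together) of all genes. In WT, 2 were higher (Gzmb and Serpina3f) and 4 lower (Gzma, Gzmc, Cst7 and Serpina3g), beside 44.5% and 35.4% (79.9% in either direction). These 6 also did not overlap, beside 45.4% and 36.3% (81.8% together). The median log2 fold change of all tested genes was 0.12 in KO and 0.11 in WT. The response itself differed between genotypes, by the interaction term, for 5 of 8 genes, 4 with a higher response in KO and 1 with a lower one, beside 2.37% and 2.25% (4.62% in either direction) of all tested genes. The interaction and the contrasts above rest on the same 12 libraries.

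The interaction was 2.04 (SE 0.12, limma adjusted p = 8.97e-07) for Serpina3g and 1.69 (SE 0.20, adjusted p = 0.000386) for Serpina3f. For Gzmc it was 2.08 (SE 0.36, adjusted p = 0.00716), where WT libraries fell to 0.123 to 0.187 RPKM at 48 h and KO libraries were at 0.666 to 2.19 RPKM. For Prf1 it was -1.75 (SE 0.36, adjusted p = 0.0181), and the call was lost without unstimulated WT library 3 (adjusted p = 0.0525) and without the filter (0.0537). For Gzmb it was 1.28 (SE 0.30, adjusted p = 0.0313), and leaving out any 1 of unstimulated WT libraries 1 and 2, the 3 WT libraries at 48 h or KO libraries 2 and 3 at 48 h ended the call (adjusted p from 0.0504 to 0.0855), as did blocking by library number (0.0512) and omitting the filter (0.0788). Without the 4 Y-positive libraries Gzmc (0.224), Prf1 (0.228) and Gzmb (0.355) lost their calls. Serpinb9 (1.08, adjusted p = 0.119) and Gzma (0.28, adjusted p = 0.763) did not pass, though with a block by genotype and number Serpinb9 did (adjusted p = 0.024) and Cst7 did (adjusted p = 0.00208).

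**Figure D4:**
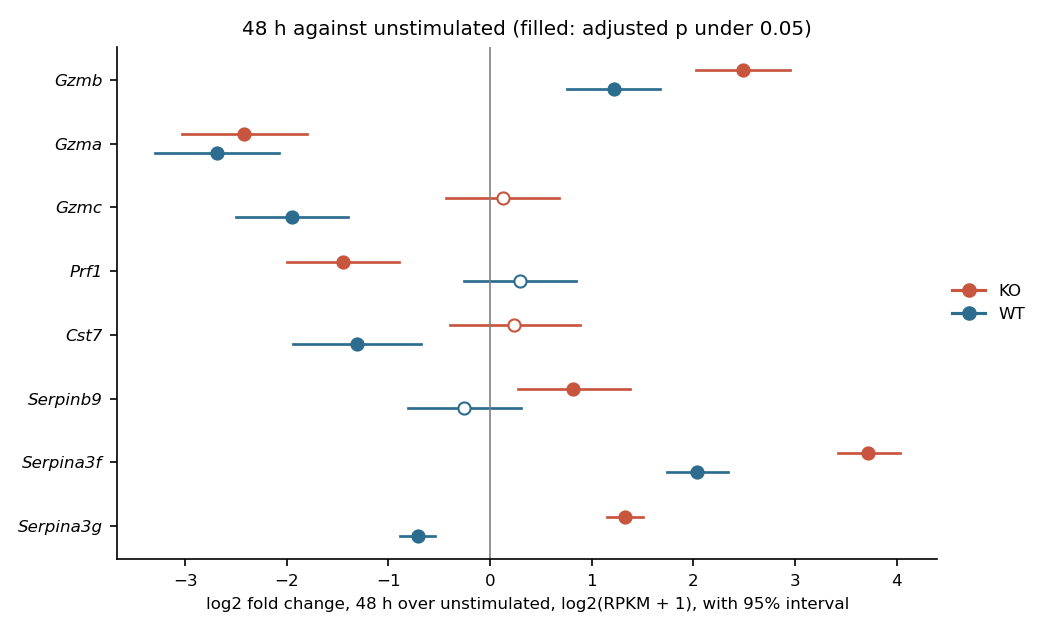
Log2 fold change of 48 h over unstimulated for the 8 tested genes in KO and WT, with 95% intervals from limma. Filled points passed the threshold. Serpina3g lies at 1.33 in KO and -0.71 in WT, and Prf1 at -1.45 in KO and 0.29 in WT.

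By level per length, Serpina3g led in both KO groups (mean 44.1 RPKM unstimulated and 112 RPKM at 48 h), and Cst7 led in both WT groups (125 and 50.2 RPKM). In unstimulated KO, Serpina3g and Cst7 overlapped over libraries, as did Gzma and Serpinb9, Prf1 and Gzmb, and Gzmb and Serpina3f. In unstimulated WT the order ran from Cst7 over Serpina3g, Gzmb, Gzma, Serpinb9, Prf1, Gzmc and Serpina3f to Gzmk and Gzmm, and of these neighbours Gzmb and Gzma overlapped and no other pair did. At 48 h in KO, Serpina3f, Cst7, Serpinb9 and Gzmb overlapped in turn below Serpina3g. At 48 h in WT, Gzmb overlapped Cst7 and stood above Serpina3g.

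Other genes of the granule pathway were examined as a list of 32, of which 31 were in the table and 28 were tested. In unstimulated KO, 1 was higher and 5 were lower, beside 4.35% and 5.83% of all tested genes, with a median log2 fold change of -0.05 (-0.02 over all genes). The t-SNARE Stx11, needed for granule release, was at 15.4 ± 4.11 RPKM in KO and 25.5 ± 1.54 RPKM in WT (SD, n = 3 each, log2 fold change -0.71, limma adjusted p = 0.00598). M6pr, a mannose 6-phosphate receptor that sorts lysosomal enzymes, fell by 0.30, Ctsd by 0.25 and the death ligand Fasl by 0.56, while the death ligand Tnfsf10 rose by 0.53. At 48 h, 4 were higher and 8 lower, beside 7.76% and 9.81% of all tested genes, with a median of -0.11 (0.00 over all genes). Stx11 was at 26.5 ± 3.35 RPKM in KO and 70.9 ± 3.55 RPKM in WT (-1.39, adjusted p = 2.37e-05), and the death receptor Fas at 15.5 ± 1.70 RPKM in KO and 6.64 ± 0.154 RPKM in WT (1.10). Tnfsf10 rose by 0.90. The adaptor subunit Ap3b1 fell by 0.84, serglycin (Srgn) by 0.70 and cathepsin C (Ctsc) by 0.27. Nkg7, a granule membrane protein, was at 260 RPKM in KO and 219 RPKM in WT at 48 h and did not pass (adjusted p = 0.408).

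Of 71 other serpins and cystatins, 9 were tested and 40 were listed at 0 in all libraries. In unstimulated KO, Serpinc1, the antithrombin gene, was higher (log2 0.67) and Serpinb1a (-0.68) and Serpinb6a (-0.35) were lower, 1 higher and 2 lower beside 4.35% and 5.83% of all tested genes. At 48 h 2 were higher and 2 lower, beside 7.76% and 9.81%, with a median of -0.12. At 48 h Serpinb6b was at 31.2 ± 18.4 RPKM in KO and 8.95 ± 1.85 RPKM in WT (log2 fold change 1.56, limma adjusted p = 0.00488), and Serpinb6a was at 6.26 ± 0.868 RPKM in KO and 14.5 ± 0.826 RPKM in WT (-1.09). Serpinf1 fell by 1.16 and Serpinc1 rose by 0.95. The cystatins Cstb and Cst3 did not pass (-0.13 and -0.07). Of 16 granzyme paralogs, related granule proteases and Mpeg1, 3 were tested. Between genotypes 0 passed unstimulated, where the list summed to 5.48 to 8.81 RPKM in KO and, more widely spread, to 2.96 to 28.8 RPKM in WT libraries. At 48 h 1 was higher in KO and 0 were lower, beside 7.76% and 9.81% of all tested genes. Mpeg1, a perforin-like protein of phagocytes, was at 4.03 ± 1.26 RPKM in KO and 0.83 ± 0.136 RPKM in WT at 48 h (1.43, adjusted p = 0.000544).

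Of 44 genes for transcription factors and cytokine receptors of T cells, 41 were tested. In unstimulated KO 6 were higher and 4 lower, beside 4.35% and 5.83% of all tested genes, with a median of 0.00. At 48 h 8 were higher and 16 lower, beside 7.76% and 9.81%, with a median of -0.16. Batf itself is one of the genes that fell. Prdm1, a factor of effector Treg cells, was at 0.863 ± 0.177 RPKM in unstimulated KO and 2.53 ± 0.270 RPKM in unstimulated WT (-0.92, limma adjusted p = 0.000475). Bhlhe40 fell by 1.00 and Irf8 rose by 0.58. Eomes, a T-box factor of cytotoxic cells, was higher in KO, at 1.79 ± 0.550 RPKM against 0.806 ± 0.179 RPKM unstimulated and at 1.42 ± 0.219 RPKM against 0.358 ± 0.135 RPKM at 48 h. The T-box factor Tbx21 was at 56.3 ± 1.82 RPKM in KO and 72.3 ± 1.78 RPKM in WT at 48 h (-0.36, adjusted p = 0.0305). Runx2 (-1.48) and Fosl2 (-1.16) fell at 48 h, while Batf3, a relative of Batf, rose by 1.72.

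The genes whose log2 values over the 12 libraries were most like those of a member were listed by Pearson correlation, a description in which all genes share the same libraries and the split by stimulation. For Gzmb these were Lamc1 (0.976), Epcam, Iffo2, Man2a2 and Adap1 (0.954). For Prf1 they were Tec (0.895), Vim, Tes, Ctla4 and Stard10 (0.863). For Cst7 they were the inhibitory receptor gene Havcr2 (0.944), Plcb4, Magee1, Lxn and Clip3 (0.893). Adm and Vps52 were among the nearest to both Serpinb9 and Serpina3g, with Vps52 at 0.94 for Serpinb9, while Car5b was the nearest to Serpina3g. Adm was at 3.66 RPKM in KO at 48 h and at most 0.64 RPKM as the mean of any other group.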

How the data were processed

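The authors deposited 1 table of RPKM values per gene and library, with gene coordinates and exon lengths. Per the submitters' processing notes, FastQC, STAR, Subread's featureCounts, DESeq2 and build mm10 are named, with no versions or roles, and the labels give 600 ng of RNA and a stranded mRNA kit. The counting's strand setting and its treatment of multi-gene reads could not be learned here. RPKM times length gave whole reads (100% of values within 0.01), whose sum per library is the depth given. Of 24421 entries, 27 carried a date in place of a symbol and were left out.

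Genes with at least 1 RPKM in 3 libraries were tested with limma 3.58.1 (R 4.3.3, mean trend) on log2(RPKM + 1), with 1 model of 4 group means over 12 libraries, 8 residual degrees of freedom and Benjamini-Hochberg adjustment within each of 5 contrasts at a threshold of 0.05. Members and lists were chosen with earlier results of these data known. Named genes are the 10 members and Batf, the 5 nearest genes of 5 members, and up to 4 genes of a list with the smallest adjusted p per genotype contrast, while Fasl, Srgn, Ctsc, Nkg7, Cstb, Cst3, Eomes, Tbx21, Batf3, Klrb1c, C1qa and C1qb and the within-library ratios were chosen after their values were seen. A gene that the rule also names is not reported here. Alternatives changed the pseudocount, filter, scaling, test, blocks, sex term and libraries. Motifs and shared 50-base windows came from RefSeq promoters and GENCODE M21 transcripts. Promoter and table coordinates are both mm10 (GRCm38).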

Additional observations from a re-analysis of the deposited data

Results flagged for a closer look

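For 5 of the genes the response to stimulation differed between KO and WT by the interaction term of the limma fit. The log2 difference was 2.04 for Serpina3g, 1.69 for Serpina3f, 2.08 for Gzmc, 1.28 for Gzmb and -1.75 for Prf1. Groups of 3 libraries were too small for a test of single outlying libraries.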

How the results depend on the processing

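A change of sign was looked for in every gene that the reported or the alternative fit called, and the only one was that of Serpina3f in WT, at -0.23 with the reads of Serpina3f and Serpina3g summed (2.04 alone), because the sum is mostly reads of Serpina3g. The largest losses of calls came without the 4 libraries with Y-linked transcripts, which leaves 1 WT library per state. For the genes called lower in unstimulated KO, the log2 values were then -1.97 (Gzmb), -0.76 (Gzmc) and -1.78 (Cst7), against -2.18, -0.99 and -1.80 reported. For those called lower at 48 h they were -0.96 (Gzmb) and -1.54 (Prf1), against -0.90 and -1.89. The share of all tested genes that lost their calls in that fit was not counted. A term for these transcripts left 1 lower at 48 h, and no filter left 0 lower in the interaction. Leaving out 1 library at a time gave 2 to 3 lower in unstimulated KO, 3 to 5 higher in KO at 48 h and 2 lower, 4 to 5 higher with stimulation in KO, 3 to 5 higher and 0 to 1 lower in the interaction. Deviations of same-numbered libraries of both states were positively correlated in KO (0.274, 0.19 and 0.11) and in WT (0.075, 0.134 and 0.146). Y-linked status also matched by number in WT. No KO library had Y-linked expression, so in KO this status cannot show whether numbers match. KO and WT libraries of 1 number did not deviate together. Libraries of both states may thus be paired within a genotype. The labels do not tie them to animals, and the reported fit has no block. With a replicate block over the 12 libraries or by genotype and number, the counts of members called stayed as reported, except that the block by genotype and number called 6 higher in the interaction (4 reported). The genes behind a count could change. With the block over the 12 libraries, the interaction of Gzmb lost its call (limma adjusted p = 0.0512) and that of Cst7 gained one (0.0231). Genes near 1 RPKM, such as Gzmc, are limited by depth.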
